A study of Homo sapiens with 21 samples.

Results

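The genes described here are 38 genes of the unfolded protein response and of protein folding in the endoplasmic reticulum (ER), out of 62699 genes in the count table. They were taken by symbol from a fixed list, which was chosen with earlier results of these data known. They comprise 11 ER chaperones and co-chaperones, 6 ER oxidoreductases, 7 genes of ER-associated degradation, 4 genes for the stress sensors and their effector XBP1, 8 genes of the ATF4-CHOP arm, and 2 genes of the translocon and ER membrane (SEC61B and WFS1). All 38 were found in the table, and all 38 passed the filter on low counts. The samples were islet-like cells differentiated from H1, an established line of human embryonic stem cells. The labels give 4 genotypes, WT, ISL1-/-, PAX6-/- and PDX1-/-, each knockout lacking a transcription factor of pancreatic endocrine cells. On day 11 of differentiation every culture received a lentivirus, either with ISL1 joined to the blue fluorescent protein BFP through an IRES2 element or with BFP alone. Cells that fluoresced blue were sorted and harvested on day 18, so the WT controls also carry a BFP vector. The 21 libraries form 8 groups: both WT groups and the PDX1-/- group that received ISL1 have 2 libraries each, and the other 5 groups have 3. The design text calls them biological replicates, and the number of clones per genotype and the promoter of the vector are not given in the sources used here.

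Proteins that enter the secretory pathway fold in the ER with the help of chaperones such as HSPA5 (BiP) and of oxidoreductases that form disulfide bonds. When unfolded proteins accumulate, the sensors ATF6, ERN1 (IRE1) and EIF2AK3 (PERK) raise chaperone and degradation genes, partly through the transcription factor XBP1, and raise the ATF4-CHOP arm, which includes DDIT3 (CHOP). Endocrine cells of the pancreas depend on this system because they make large amounts of peptide hormone. Gene-level counts do not show whether XBP1 mRNA was spliced or whether ATF6 was cleaved.

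Total counts per library ran from 36.8 M to 60.2 M. Levels are given in CPM (counts per M counts of the library), scaled by TMM, and levels are compared between genes only after division by exon length in kilobases. Replicate 3 of PAX6-/- with ISL1 and replicate 4 of PDX1-/- with ISL1 stood apart from the other 19 libraries. Their mitochondrial share of counts was 3.16% and 3.84%, against 1.28% to 1.93% in the others. Their counts also moved with exon length. Over 350 genes with under 1500 bases of exon, the median log2 difference from the BFP libraries of the same genotype was 1.45 and 1.71, against -0.21 to 0.26 in the other 19. Over 3191 genes with more than 8000 bases it was -0.68 and -0.84, against -0.12 to 0.14. Of the 8 members under 3000 bases, 7 and 8 lay above 0 in these 2 libraries, with medians of 1.21 and 1.84. Of the 10 members over 8000 bases, 3 and 5 lay above 0, with medians of -0.40 and 0.29, so the long members did not follow the pattern of all genes in the PDX1-/- library. All 21 libraries share an estimate of the spread in the tests, so both libraries bear on every adjusted p, and the main counts are therefore given with and without them. That alternative was chosen after seeing the data.

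**Figure D1:**
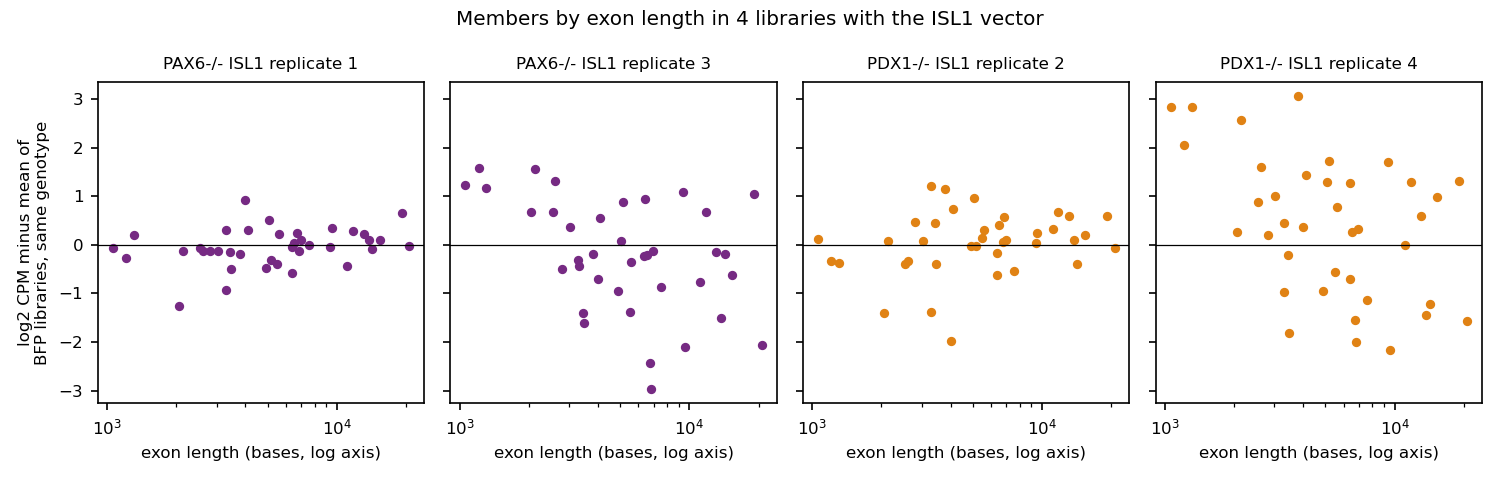
Each point is 1 of the 38 members, with exon length on a log axis and the log2 CPM minus the mean of the BFP libraries of the same genotype on the vertical axis, for 4 libraries with the ISL1 vector. Of the 8 members under 3000 bases, 7 lie above 0 in replicate 3 of PAX6-/- and 8 in replicate 4 of PDX1-/-, while in replicate 1 of PAX6-/- and replicate 2 of PDX1-/- they lie mostly near or below 0.

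The targeted genes do not check the labels at the level of gene counts. ISL1 was at 76.9 ± 4.79 CPM (SD, n = 3) in the libraries labelled ISL1-/- with BFP and at 413 ± 150 CPM (n = 2) in WT with BFP, but PAX6 was at 136 ± 33.9 CPM in PAX6-/- against 186 ± 64.9 in WT, and PDX1 at 111 ± 7.05 CPM in PDX1-/- against 90.9 ± 15.4 in WT. ISL1 counts did not separate the ISL1 vector from BFP either, with 349 ± 16.9 CPM in WT with ISL1. Markers of islet cell types differed widely between WT and the knockouts with BFP. The summed level of 10 alpha cell markers was 42600 to 57100 CPM in WT, 995 to 1220 in ISL1-/-, 1650 to 2300 in PAX6-/- and 17100 to 21900 in PDX1-/-, and 8, 5 and 4 of the 10 were lower by the test. The summed level of 10 beta cell markers was 6390 to 7780 CPM in WT and 970 to 2780 in the knockouts, with 3, 3 and 4 lower and 2, 0 and 2 higher, and G6PC2 was at 0 in the 3 PAX6-/- libraries. In WT these sums were mostly GCG, at a mean of 43800 CPM, and INS, at 6420 CPM. Some beta markers had higher means in the knockouts, such as NKX6-1, at 62.8 CPM in WT and at 219, 128 and 326 CPM in the knockouts. For 7 hepatocyte markers the sum was 15100 to 17200 CPM in WT and 3820 to 9170 in the knockouts, with 3, 6 and 6 lower and none at 0. Other lists went the other way. The sum of 8 enterochromaffin markers was 20700 to 25200 CPM in WT and 47200 to 53400 in PDX1-/-, with 4, 1 and 5 higher in ISL1-/-, PAX6-/- and PDX1-/-. That of 5 epsilon cell markers was 311 to 373 CPM in WT and 3140 to 4720 in PAX6-/-, and that of 9 endocrine progenitor markers was 2300 to 2920 CPM in WT and 3150 to 5030 in the knockouts. These differences accompany every result on the members below, and their part in those results was not tested. In RNA from a population of cells, fewer cells of a type and less RNA per cell cannot be told apart.

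Regulatory sequences known from the ER stress response lie in the promoters of several members and are shown for the members whose levels are described below. RefSeq promoters of assembly GRCh38.p14 cover 250 bases before to 50 after each gene's start, and 35 of the 38 members had one. The ER stress response element (ERSE, CCAAT and CCACG with 9 bases of any kind between them) was searched on either strand. It was found in 8 of these 35, namely HSPA5, HSP90B1, CALR, CANX, CRELD2, PDIA6, ERO1B and XBP1, against 25 of 27305 genes searched (0.0916%). The related ERSE-II (ATTGG and CCACG with 1 base between them) was found in HYOU1, SDF2L1 and HERPUD1, against 0.0696% of the genes searched. Windows of the motif with 5 bases on each side are printed 5′ to 3′ on the gene's strand, with the fixed bases of the motif in capitals.
HSPA5, chr9:125241386-125241414, minus strand: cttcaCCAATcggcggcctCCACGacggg
HSP90B1, chr12:103930211-103930239, plus strand: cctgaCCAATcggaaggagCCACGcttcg
CALR, chr19:12938379-12938407, plus strand, motif reversed: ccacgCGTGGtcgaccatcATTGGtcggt
PDIA6, chr2:10812848-10812876, minus strand: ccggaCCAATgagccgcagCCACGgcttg
ERO1B, chr1:236282178-236282206, minus strand, motif reversed: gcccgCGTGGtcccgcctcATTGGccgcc
XBP1, chr22:28800598-28800626, minus strand: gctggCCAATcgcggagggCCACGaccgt
SDF2L1, chr22:21642109-21642129, plus strand, motif reversed: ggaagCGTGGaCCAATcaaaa
HERPUD1, chr16:56932020-56932040, plus strand: cgccgATTGGgCCACGttggg
The motif ends 47 bases before the RefSeq start in HSPA5, 33 in XBP1 and 67 in PDIA6, while in ERO1B it lies 224 bases before the start. The ATF4-type element TGATGNAA was found in ATF3, CHAC1, ASNS and HERPUD1, against 4.46% of the genes searched. The element TGACGTGG, bound by XBP1 and ATF6, was found in HYOU1, where it overlaps an ERSE-II, against 0.927% of the genes searched. A match to these letters is a description of the sequence and no evidence that a factor binds there.

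Per exon length, the members spanned a wide range of levels. HSPA5 was highest, at a mean over all libraries of 266 CPM per kilobase, followed by the oxidoreductase PDIA4 at 214 and by XBP1 at 191. The sensors were low, with ATF6 at 4.73, EIF2AK3 at 2.42 and ERN1 at 1.56 CPM per kilobase. The lowest were ASNS, which makes asparagine, at 0.187 and DERL3, a channel component of ER-associated degradation, at 0.564. ASNS counts are not interpretable as the level of that gene, since a second annotated gene on the same strand takes 531% of its counts.

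Summed over the 38 members, the level was 16200 and 17300 CPM in WT with BFP. It was 10700, 10700 and 9830 CPM in ISL1-/- with BFP, 9890, 9720 and 9950 in PAX6-/- with BFP, and 9170, 9380 and 9200 in PDX1-/- with BFP. The 2 WT libraries were thus above all 9 knockout libraries, and the knockout genotypes lay close to each other. For 22 of the 38 members both WT libraries were above all 9 knockout libraries, against 12.4% of all genes tested. No member had both WT libraries below all 9, against 11.5% of all genes. The 22 included 10 of the 11 chaperones, HYOU1 being the exception. They also included 5 of the 6 oxidoreductases, ERO1A being the exception. For a single knockout against WT, groups that do not overlap were common. Of all genes, 25.7%, 23.4% and 25.4% lay below WT without overlap in ISL1-/-, PAX6-/- and PDX1-/-, and 26%, 25.1% and 27% above. Of the 38 members, 29, 27 and 26 lay below and 2, 3 and 4 above.

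**Figure D2:**
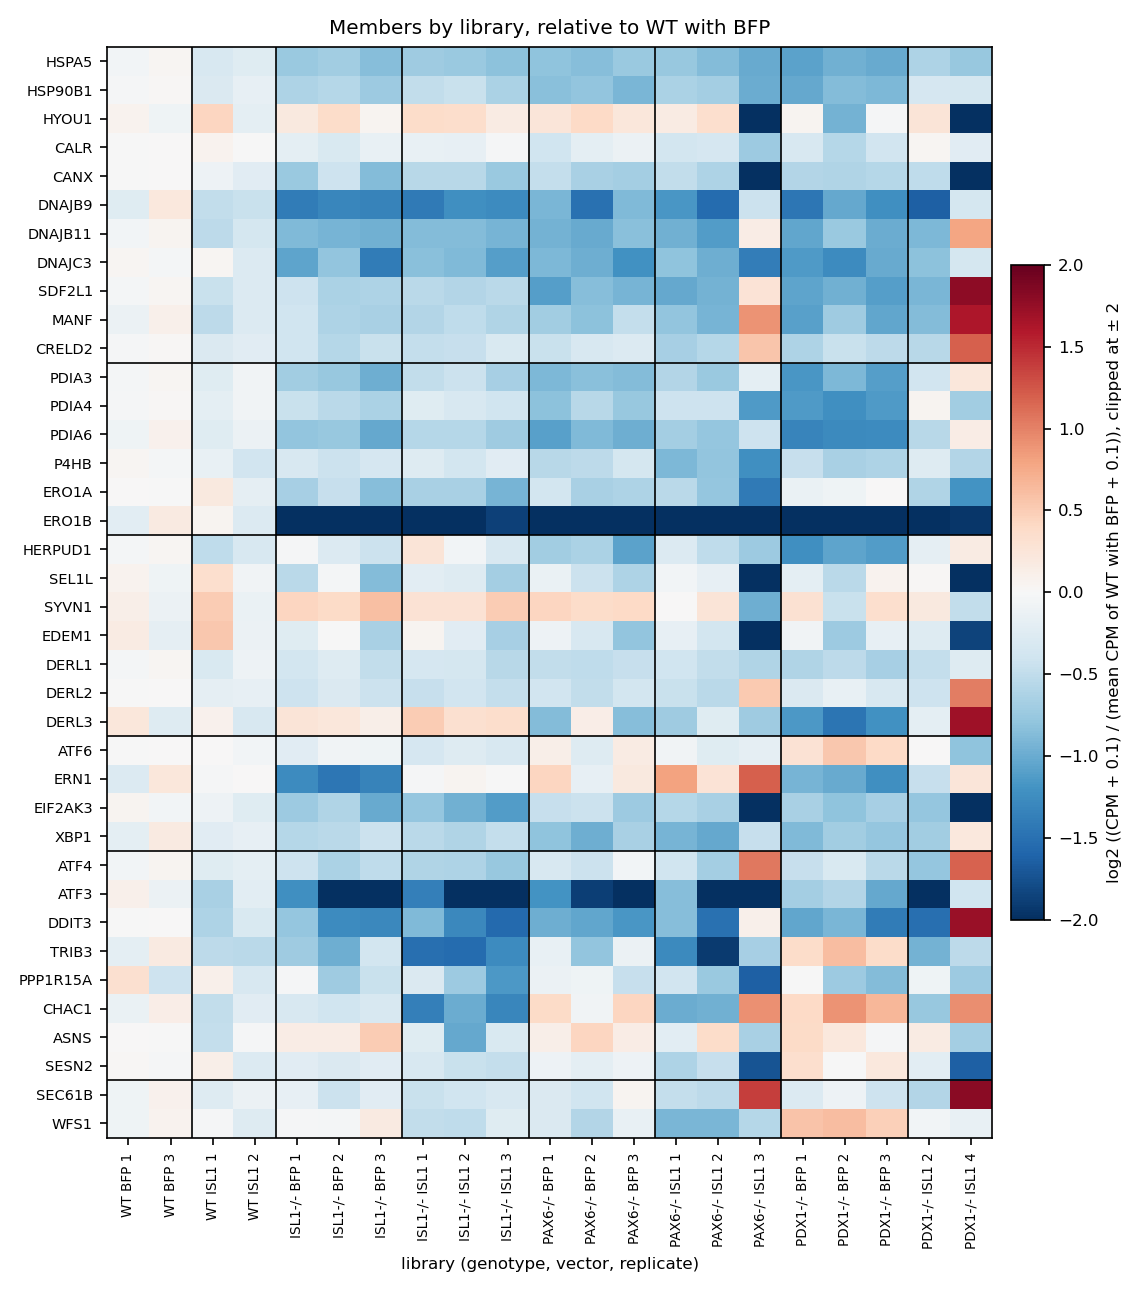
Rows are the 38 members, grouped by role, and columns are the 21 libraries, grouped by genotype and vector, and colour is the log2 ratio of CPM to the mean of WT with BFP, with 0.1 CPM added to both and values clipped at 2 on either side. The chaperone and oxidoreductase rows are mostly blue in the knockouts, the ERO1B row is deep blue in every knockout library, and replicate 3 of PAX6-/- and replicate 4 of PDX1-/- with ISL1 differ from their neighbours.

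Each knockout with BFP was compared with WT with BFP to ask how the members differ when the transcription factor is missing. By edgeR's quasi-likelihood test at an adjusted p under 0.05, 8 members were lower in ISL1-/-, against 5.59% of all genes called and 3.92% called lower. In PAX6-/-, 7 were lower, against 5.51% called and 3.26% lower, and in PDX1-/-, 12 were lower, against 9.68% called and 5.65% lower. No member was called higher, against 1.67%, 2.25% and 4.03% of all genes. The median log2 fold change of the 38 members was -0.51, -0.48 and -0.59, while the median over all genes tested was 0.02, 0.03 and 0.03. The 3 comparisons share their 2 WT libraries, so their values stand side by side and do not support each other. Without the 2 libraries that stood apart, which are in none of these groups, 23, 21 and 24 members were lower in ISL1-/-, PAX6-/- and PDX1-/-, and 0, 0 and 3 were higher. All genes were then called at 23.5%, 23.5% and 27.6%, and the medians of the members were -0.50, -0.49 and -0.61. In PAX6-/- the replicate numbers pair libraries with BFP to those with ISL1, and whether they pair PAX6-/- with WT was not tested. With replicate number as a block over all genotypes, 13 members were lower in PAX6-/-, against 13% of all genes called. The 6 that this fit adds are DNAJB9, DNAJB11, SDF2L1, PDIA4, DERL1 and XBP1. In ISL1-/- the block added ATF3 (-2.38, adjusted p = 0.018), DNAJB11 (-0.89, 0.0355) and ERO1A (-0.68, 0.0389), all lower. In PDX1-/- it added DNAJB11, DDIT3, P4HB, SDF2L1 and DERL3, all lower, and WFS1, which was higher.

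**Figure D3:**
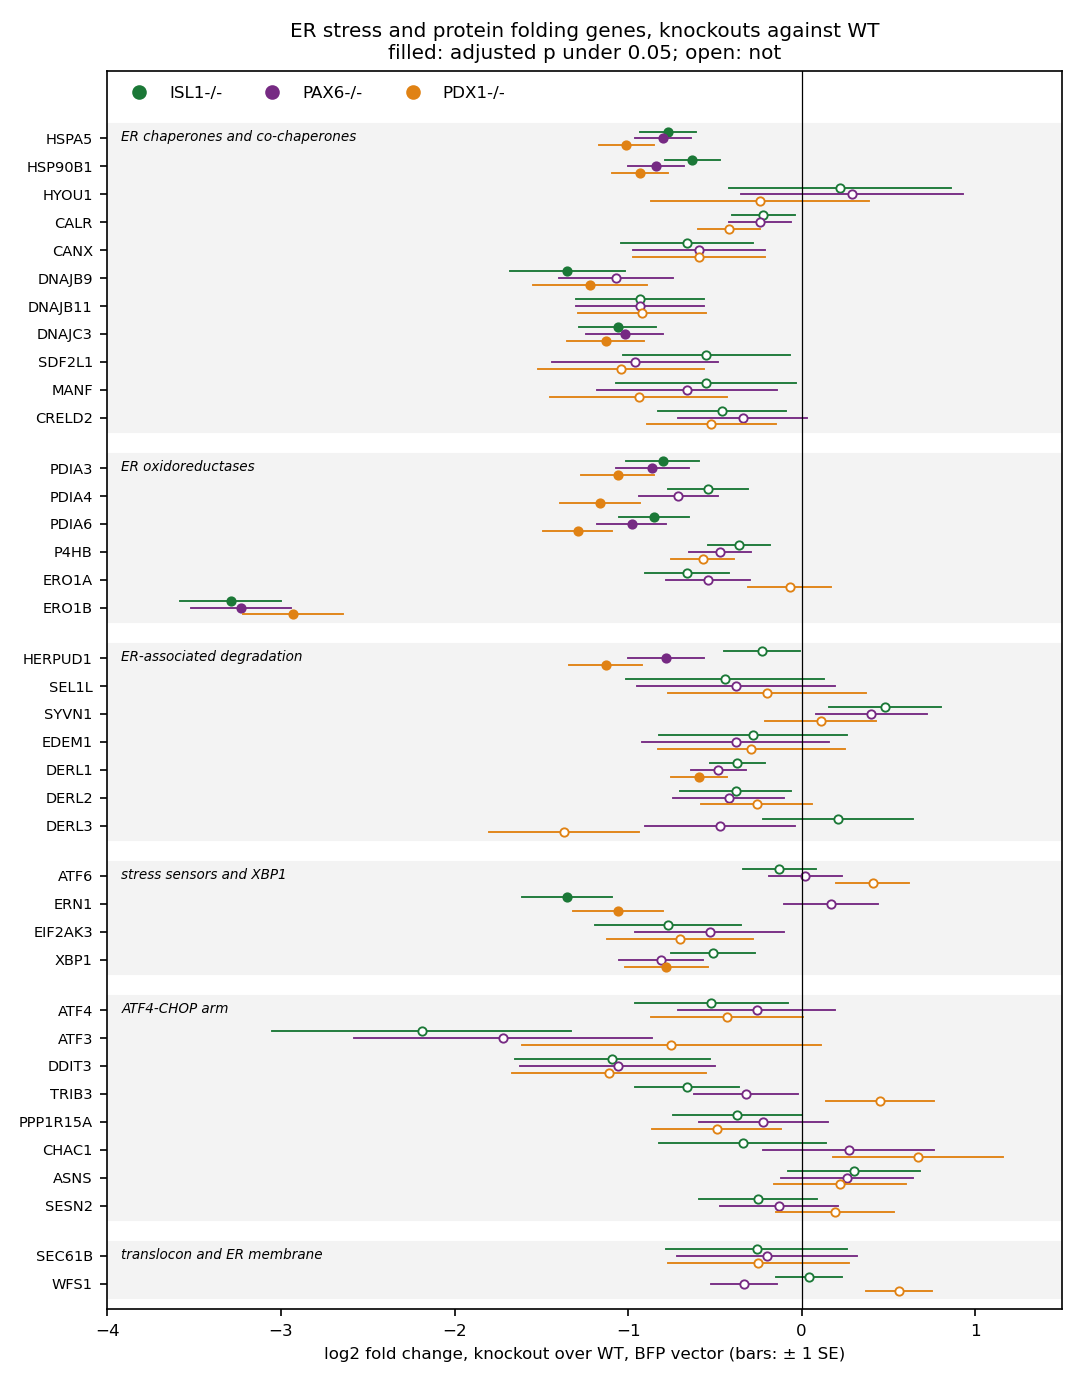
Points are log2 fold changes of each knockout over WT, both with the BFP vector, for the 38 members by role, with bars of 1 SE on either side and filled points where the adjusted p was under 0.05. ERO1B lies near -3 in all 3 knockouts, most chaperones and oxidoreductases lie below 0, and the genes of the ATF4-CHOP arm have wide bars and open points.

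Among the chaperones, HSPA5, the main ER chaperone of the Hsp70 family, fell in all 3 knockouts. HSPA5 (chr9:125234853-125241382, minus strand) was at 2660 and 2840 CPM in WT, at 1640, 1690 and 1520 in ISL1-/-, at 1580, 1520 and 1640 in PAX6-/-, and at 1310, 1420 and 1370 in PDX1-/-. No knockout library reached the WT range. The log2 fold change was -0.77 ± 0.16 (SE, adjusted p = 0.00699), -0.80 ± 0.16 (0.00689) and -1.01 ± 0.16 (0.000803).

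HSP90B1 (GRP94), the ER member of the Hsp90 family, was at 1880 and 1950 CPM in WT and between 938 and 1290 CPM in the 9 knockout libraries. It fell by 0.63, 0.84 and 0.93 on the log2 scale in ISL1-/-, PAX6-/- and PDX1-/- (adjusted p = 0.0287, 0.00638 and 0.00184). DNAJC3 (p58IPK), a co-chaperone of HSPA5, was at 124 and 117 CPM in WT and at 45.7 to 69.4 CPM in the knockouts. It fell by 1.06, 1.02 and 1.13 (adjusted p = 0.00842, 0.0126 and 0.004) and was 2.09-fold, 2.03-fold and 2.18-fold lower. DNAJB9, which recruits HSPA5 to the sensor ERN1, was at 239 and 325 CPM in WT, at 107 to 114 in ISL1-/-, at 100 to 153 in PAX6-/- and at 103 to 139 in PDX1-/-. DNAJB9 fell in ISL1-/- (log2 fold change -1.35 ± 0.33, adjusted p = 0.0217) and in PDX1-/- (-1.22 ± 0.33, 0.026). In PAX6-/- its groups did not overlap either, but the value of -1.07 ± 0.33 missed the threshold (adjusted p = 0.0694), which it passed with the replicate block (-1.01 ± 0.24, 0.0117).

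The other 7 chaperone genes were called in none of the 3 comparisons with all libraries and no block. Their log2 fold changes ran from -1.04 for SDF2L1 in PDX1-/- to 0.29 for HYOU1 in PAX6-/-. SDF2L1, MANF and CRELD2, small ER proteins that ER stress induces strongly, were in WT at 141 and 149, 94.8 and 110, and 161 and 167 CPM, with all 9 knockout libraries below. Their standard errors, 0.37 to 0.52, were large, and each of the 3 was highest in the 2 libraries that stood apart. SDF2L1 was at 501 CPM in replicate 4 of PDX1-/- with ISL1 and at 176 CPM in replicate 3 of PAX6-/- with ISL1. Without those libraries SDF2L1 fell by 0.53, 0.97 and 1.06 in the 3 knockouts (adjusted p = 0.000963, 3.4e-06 and 8.29e-07). The long member CANX (calnexin), a lectin chaperone of glycoproteins, was lower in those 2 libraries, at 312 and 325 CPM against 734 to 1340 CPM in the rest. Without them it was called lower in each knockout (-0.64, -0.60 and -0.61). HYOU1, the largest ER chaperone, was at 222 and 199 CPM in WT and at 109 to 278 CPM in the knockouts, and the groups overlapped in ISL1-/- and PDX1-/-.

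The oxidoreductases held the largest difference of any member. ERO1B (chr1:236214681-236282019, minus strand), an oxidase that recharges protein disulfide isomerases and is abundant in islets, was at 1100 and 1450 CPM in WT. It was at 110, 157 and 124 CPM in ISL1-/-, at 169, 99.8 and 141 in PAX6-/-, and at 165, 189 and 149 in PDX1-/-. The lowest WT library was thus several times the highest knockout library, at 189 CPM. ERO1B was 9.79-fold lower in ISL1-/- (log2 fold change -3.29 ± 0.29, adjusted p = 4.25e-06), 9.36-fold lower in PAX6-/- (-3.23 ± 0.29, 6.86e-06) and 7.61-fold lower in PDX1-/- (-2.93 ± 0.29, 8.15e-05). The call held in each of the 5 fits per comparison that left out a library, and the highest adjusted p among them was 0.00138. GPR137B on the opposite strand overlaps ERO1B and holds 17.3% as many counts over all libraries. It was at 74.7 to 88.1 CPM in WT with BFP and 43.2 to 62.1 CPM in the knockouts with BFP, a difference far smaller than that of ERO1B.

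The paralog ERO1A, which hypoxia induces, differed far less. It was at 116 and 114 CPM in WT, at 72.5, 83.1 and 63.4 in ISL1-/-, at 88.9, 73.5 and 74.6 in PAX6-/- and at 105, 108 and 116 in PDX1-/-. Only PDX1-/- overlapped WT. With all libraries and no block ERO1A was called in no knockout (-0.66, -0.54 and -0.07). With the replicate block it was lower in ISL1-/- (-0.68, adjusted p = 0.0389). Without the 2 libraries that stood apart it was lower in ISL1-/- (-0.64, adjusted p = 0.00402) and PAX6-/- (-0.55, 0.00989). Among the protein disulfide isomerases, PDIA6 was at 755 and 856 CPM in WT and at 323 to 477 CPM in the 9 knockout libraries. It fell by 0.85, 0.98 and 1.29 in ISL1-/-, PAX6-/- and PDX1-/- (adjusted p = 0.017, 0.00866 and 0.000801). PDIA3, which works with the lectin chaperones on glycoproteins, was at 1560 and 1630 CPM in WT and 709 to 987 CPM in the knockouts. It fell by 0.80, 0.86 and 1.06 (adjusted p = 0.0295, 0.0213 and 0.00379).

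With all libraries PDIA4 was called in PDX1-/- alone. It was at 970 and 996 CPM in WT, at 720, 679 and 631 in ISL1-/-, at 554, 672 and 581 in PAX6-/- and at 448, 419 and 450 in PDX1-/-. The log2 fold change in PDX1-/- was -1.16 ± 0.23 (adjusted p = 0.004), against -0.54 (0.202) and -0.71 (0.0857) in the other two. It was called in PAX6-/- with the replicate block (-0.75, 0.0135), and without the 2 libraries that stood apart in both ISL1-/- (-0.52, 0.00105) and PAX6-/- (-0.72, 5.6e-05). P4HB, the most studied disulfide isomerase, was at 1260 and 1190 CPM in WT and at 781 to 981 CPM in the knockouts. Its groups did not overlap, but with all libraries and no block it was called in none (log2 fold change -0.36, -0.47 and -0.57, lowest adjusted p 0.0531). With the replicate block P4HB was lower in PDX1-/- (-0.56, 0.0257). Without the 2 libraries that stood apart all 6 oxidoreductases, P4HB included, were lower in ISL1-/- and PAX6-/-, and 5 of the 6 in PDX1-/-. All genes were then lower at 12.2%, 11.9% and 14.1%.

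In ER-associated degradation, HERPUD1, a scaffold of the ubiquitin ligase that clears misfolded proteins, separated the knockouts. It was at 520 and 551 CPM in WT, at 528, 445 and 398 in ISL1-/-, at 332, 346 and 256 in PAX6-/- and at 228, 259 and 246 in PDX1-/-. The ISL1-/- libraries overlapped WT, and the others did not. HERPUD1 fell in PAX6-/- (log2 fold change -0.78 ± 0.22, adjusted p = 0.0404) and in PDX1-/- (-1.13 ± 0.21, 0.00308), and was at -0.23 ± 0.22 (0.646) in ISL1-/-. DERL1, a component of the retrotranslocation channel, fell in PDX1-/- by 0.59 (adjusted p = 0.0285), from 80.5 and 84.7 CPM in WT to 54.6, 57.7 and 52.3 CPM. The other 5 genes of this group, SEL1L, SYVN1, EDEM1, DERL2 and DERL3, were called in no knockout with all libraries and no block. With the replicate block DERL3 was lower in PDX1-/- (-1.41, adjusted p = 0.00493). Without the 2 libraries that stood apart 2, 3 and 4 of the 7 genes of this group were lower in ISL1-/-, PAX6-/- and PDX1-/-. All genes were then lower at 12.2%, 11.9% and 14.1%. SYVN1, the ubiquitin ligase itself, had positive values of 0.48, 0.40 and 0.11, but it overlaps FAU on the same strand and MRPL49 on the other, which hold 453% and 294% of its counts, so its level is uncertain.

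Among the sensors, ERN1 differed by genotype. It was at 25.8 and 36.4 CPM in WT, at 12.9, 11.4 and 12.3 in ISL1-/-, at 41.9, 27.7 and 35.6 in PAX6-/- and at 16.2, 15.4 and 13.2 in PDX1-/-. ISL1-/- and PDX1-/- lay below WT without overlap, while PAX6-/- overlapped it. ERN1 fell in ISL1-/- (log2 fold change -1.35 ± 0.26, adjusted p = 0.00486) and in PDX1-/- (-1.06 ± 0.26, 0.0157), and was at 0.17 ± 0.27 (0.808) in PAX6-/-. XBP1, the substrate of ERN1, was at 709 and 916 CPM in WT, at 550, 561 and 604 in ISL1-/-, at 466, 411 and 516 in PAX6-/- and at 440, 502 and 476 in PDX1-/-. It was called lower in PDX1-/- (-0.78 ± 0.24, adjusted p = 0.0448), while PAX6-/- at -0.81 ± 0.24 narrowly missed the threshold (0.0541) and passed it with the replicate block (-0.77, 0.00433). EIF2AK3 was at 82.0 and 76.4 CPM in WT and at 39.4 to 58.7 CPM in the knockouts. ATF6 was at 57.9 to 101 CPM in all 11 libraries with BFP. With all libraries neither was called. Without the 2 libraries that stood apart 3, 2 and 3 of the 4 genes of this group were lower in ISL1-/-, PAX6-/- and PDX1-/-. All genes were then lower at 12.2%, 11.9% and 14.1%. EIF2AK3 lay below both WT libraries in every knockout library with BFP, so its place among the lower ones in PDX1-/- is not particular to that genotype. ATF6 was higher in PDX1-/-, against 13.5% of all genes.

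With all libraries and no block none of the 8 genes of the ATF4-CHOP arm was called in a knockout with BFP, by edgeR. At an unadjusted p under 0.05 there were 2, 0 and 0, against 19.2%, 19.1% and 22.3% of all genes. With the replicate block ATF3 was lower in ISL1-/- (-2.38, adjusted p = 0.018) and DDIT3 in PDX1-/- (-1.06, 0.0472). When the 2 libraries that stood apart were left out, DDIT3 was lower in each knockout (-1.07, -1.07 and -1.13, adjusted p = 0.0016, 0.00146 and 0.000729). ATF4 was then lower in ISL1-/- (-0.50, 0.00476) and PDX1-/- (-0.46, 0.00715), and TRIB3 in ISL1-/- (-0.65, 0.0348). ATF4 was at 275 and 294 CPM in WT and at 183 to 273 CPM in the knockouts, with log2 fold changes of -0.52, -0.26 and -0.43. DDIT3 was at 63.5 and 64.5 CPM in WT and at 24.1 to 37.6 CPM in the knockouts, with log2 fold changes of -1.09, -1.06 and -1.11 and an SE of 0.56. MARS1 on the opposite strand overlaps DDIT3 and holds 829% of its counts, and reads of the pair cannot be told apart without strand, so the level of DDIT3 is uncertain. ATF3, a stress and immediate early gene, varied most over the 21 libraries, from 4.5 to 129 CPM. It was at 51.3, 12.0 and 15.5 CPM in ISL1-/- and at 129 and 111 in WT. The summed level of 18 immediate early genes varied beside it, at 3570, 1650 and 2580 CPM in the same ISL1-/- libraries and 4520 and 4630 CPM in WT. TRIB3 and CHAC1, targets of the arm, were in PDX1-/- above WT without overlap, at 77.6, 92.3 and 77.9 CPM against 52.5 and 68.1, and at 20.3, 28.5 and 24.2 against 13.9 and 16.7. Neither was called in the fit of all libraries (0.45 ± 0.31 and 0.67 ± 0.49), and without the 2 libraries CHAC1 was called higher (0.65, adjusted p = 0.0118). In PDX1-/-, 27% of all genes and 4 of the 38 members lay above WT without overlap.

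WFS1, an ER membrane protein that restrains ATF6 and is mutated in Wolfram syndrome, was above WT in PDX1-/-. It was at 247 and 276 CPM in WT and at 390, 402 and 363 CPM in PDX1-/-, without overlap, as for 27% of all genes. The log2 fold change of 0.56 ± 0.19 missed the threshold (adjusted p = 0.0763). WFS1 passed it with the replicate block (0.62, 0.0123) and without the 2 libraries (0.54, 0.00358). ATF6 in PDX1-/- also passed it without the 2 libraries (0.39, 0.0226). SEC61B, a subunit of the translocon, was at 125 and 140 CPM in WT and at 98.6 to 137 CPM in the knockouts, with no call.

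Several calls were lost when a single library was left out, while the log2 fold changes kept their sign. That of HSP90B1 in ISL1-/- stayed between -0.67 and -0.59 over these fits, and that of XBP1 in PDX1-/- between -0.96 and -0.59. In ISL1-/-, leaving out a library of either group in turn ended the calls of DNAJB9, HSP90B1 and PDIA3 each time (adjusted p up to 0.226, 0.207 and 0.192). It ended that of PDIA6 in all fits but that without ISL1-/- replicate 2 (up to 0.177), that of DNAJC3 without ISL1-/- replicate 3 or either WT library (up to 0.088), that of HSPA5 without either WT library (up to 0.098), and that of ERN1 without WT replicate 3 (0.108). In PAX6-/-, PDIA3 and HERPUD1 were lost each time (up to 0.162 and 0.253), DNAJC3 without PAX6-/- replicate 3 or either WT library (up to 0.127), and HSPA5, HSP90B1 and PDIA6 without either WT library (up to 0.0979, 0.0838 and 0.113). In PDX1-/-, ERO1B, PDIA6, PDIA4, HSPA5, HSP90B1, PDIA3 and HERPUD1 were called each time. DNAJC3 missed the threshold without WT replicate 1 (0.0513), ERN1 without PDX1-/- replicate 3 or WT replicate 3 (up to 0.211), and DNAJB9, DERL1 and XBP1 were lost each time (up to 0.219, 0.19 and 0.347).

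**Figure D4:**
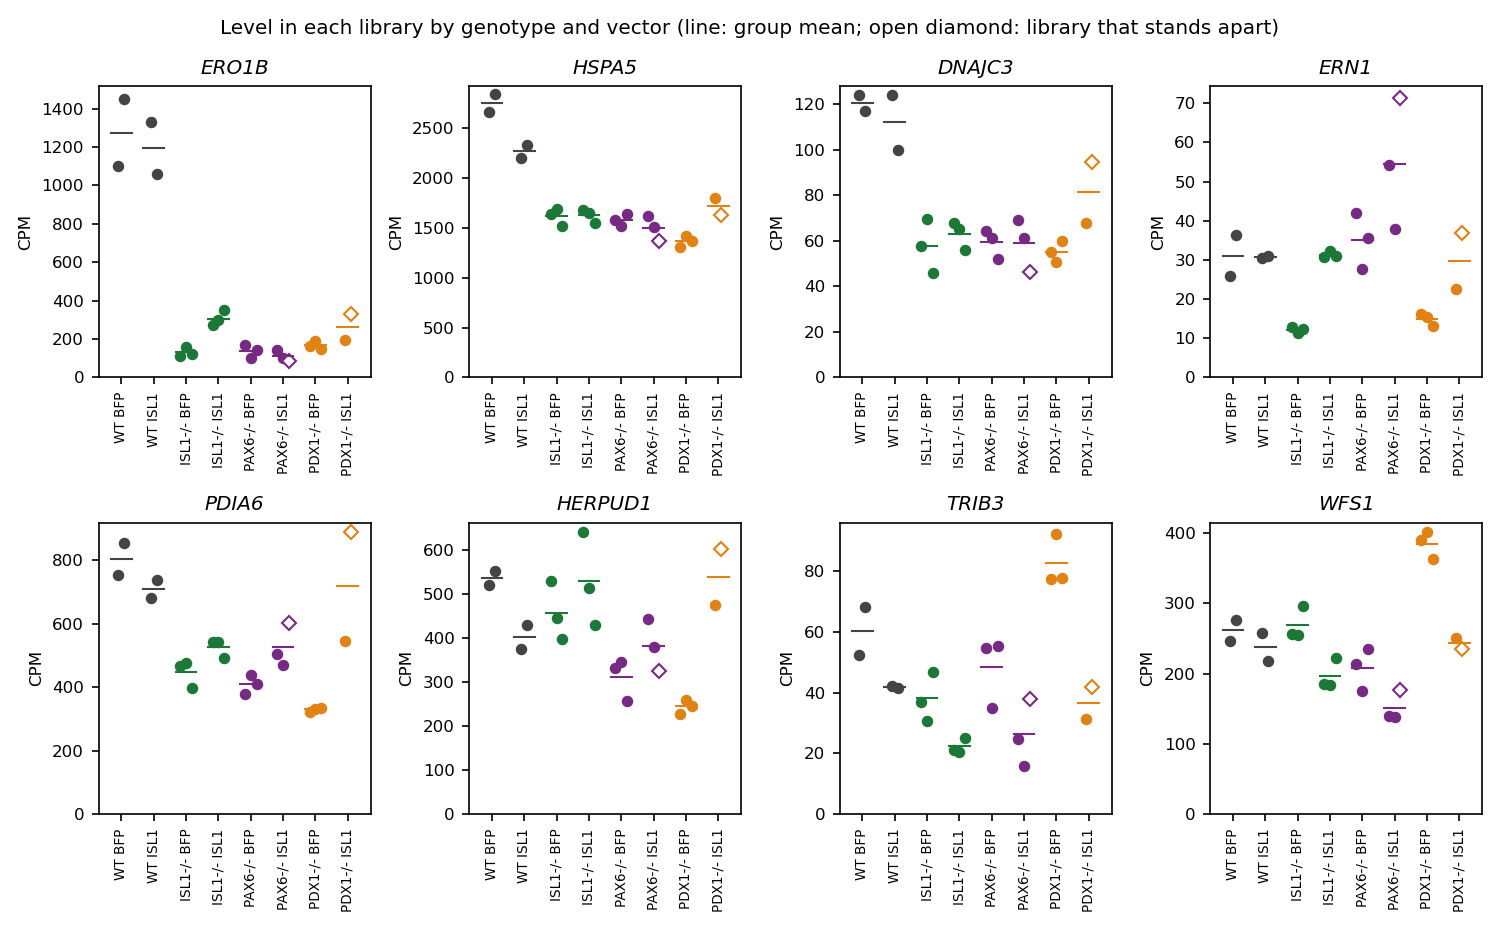
Each panel is a member, with CPM on a linear axis from 0 and the 8 groups along the horizontal axis, where points are libraries, lines are group means and open diamonds are the 2 libraries that stood apart. ERO1B is above 1000 CPM in the 4 WT libraries and below 400 CPM in all 17 knockout libraries, and ERN1 is low in ISL1-/- and PDX1-/- with BFP.

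Members with and without the ERSE letters were set side by side. Of the 11 members with an ERSE or ERSE-II, 4, 5 and 6 were lower in ISL1-/-, PAX6-/- and PDX1-/-, and of the 24 with a promoter and neither motif, 3, 1 and 4, where 3.92%, 3.26% and 5.65% of all genes were lower. The median log2 fold changes were -0.55, -0.80 and -0.93 with a motif and -0.48, -0.38 and -0.36 without. Without the 2 libraries that stood apart, 8, 9 and 10 of the 11 and 13, 10 and 11 of the 24 were lower, against 12.2%, 11.9% and 14.1% of all genes, and 3 of the 24 were higher in PDX1-/-. In the same knockouts against WT under the ISL1 vector, with all libraries, the medians were closer. They were -0.30, -0.50 and -0.12 with a motif and -0.45, -0.49 and -0.17 without. Of the 11, 1, 2 and 1 were lower there, and of the 24, 1, 2 and 0, where 2.69%, 2.3% and 0.286% of all genes were lower. The sets with and without a motif also differ in their levels and roles, since most of the 11 are chaperones.

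Genes around the members in the secretory pathway, from lists that the members are not in, were counted beside the 3.92%, 3.26% and 5.65% of all genes called lower with all libraries. Of 24 genes of transport from ER to Golgi, 5, 4 and 4 were lower in ISL1-/-, PAX6-/- and PDX1-/- and none higher. Among them was SURF4, a cargo receptor, at 1140 ± 123 CPM in WT (SD, n = 2) and 610 ± 39.6, 533 ± 28.8 and 716 ± 30.3 CPM in the knockouts (n = 3 each). KDELR2, which returns ER chaperones from the Golgi, was at 597 ± 35.9 CPM in WT and 345 ± 30.7, 307 ± 16.2 and 321 ± 28.8 CPM in the knockouts. Of 24 genes of the translocon and signal peptide processing, 3, 3 and 6 were lower and none higher, including SSR1, a subunit of the translocon-associated complex (-0.92, -0.85 and -0.76). Of 22 other ER folding genes, 1, 2 and 4 were lower, including the disulfide isomerase PDIA5 in PAX6-/- and PDX1-/- (-0.76 and -1.41). Of 21 other genes of ER-associated degradation, 2, 1 and 1 were lower, with EDEM2, which trims glycans, called in each comparison (-1.37, -1.18 and -1.23). In the degradation list, 1 of 21 is near the share of all genes. With all libraries none of these 4 lists held a gene called higher, and without the 2 libraries that stood apart 1 degradation gene was higher in ISL1-/- and 1 in PDX1-/-, as was 1 other folding gene in PDX1-/-.

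Outside the ER the picture was mixed. Of 30 further ATF4 targets of amino acid metabolism, 6, 3 and 8 were lower and none higher, including CTH, which makes cysteine, at 51.7 ± 6.71 CPM in WT and at 13.1 ± 2.11, 14.3 ± 2.98 and 11.9 ± 0.196 CPM in the knockouts. Of these 30, 16, 15 and 18 were lower and 1, 1 and 6 higher without the 2 libraries that stood apart. Of 17 other stress transducers, CREB3L4 and ATF6B were higher in ISL1-/- (0.94 and 0.86), and NFE2L2, the regulator of the oxidative stress response, was lower in PAX6-/- and PDX1-/- (-0.85 and -1.34). Of 15 cytosolic heat shock genes, 1, 0 and 2 were lower, and the list's median log2 fold change was 0.02, -0.06 and 0.10, near that of all genes. Whether the cytosolic and the ER chaperones differ in this was not tested.

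The knockouts with BFP were compared with each other to ask whether the members tell them apart. Between ISL1-/- and PAX6-/- the only member called was ERN1, lower in ISL1-/- (log2 fold change -1.52 ± 0.24, adjusted p = 0.00146), against 2.46% of all genes called, 0.757% higher and 1.7% lower. Between ISL1-/- and PDX1-/- 3 members were called, against 5.07% of all genes, 2.73% higher and 2.34% lower. HERPUD1 (0.90 ± 0.20, adjusted p = 0.0118) and DERL3 (1.58 ± 0.40, 0.0268) were higher in ISL1-/-, and TRIB3, a pseudokinase induced by the ATF4-CHOP arm, was lower (-1.11 ± 0.27, 0.0232). DERL3 was at 2.59, 2.55 and 2.35 CPM in ISL1-/- and 0.914, 0.715 and 0.874 CPM in PDX1-/-, which is very low, and the overlapping gene SMARCB1 holds far more counts. Between PAX6-/- and PDX1-/- 2 members were called, against 3.04% of all genes, 1.52% in each direction. ERN1 was higher in PAX6-/- (1.23 ± 0.24, 0.0071) and WFS1 lower (-0.89 ± 0.17, 0.00595).

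ERN1 and WFS1 were called in each fit that left out a library, except for ERN1 between PAX6-/- and PDX1-/- without PDX1-/- replicate 3 (adjusted p = 0.0535). HERPUD1 was lost without ISL1-/- replicate 1 or PDX1-/- replicates 1 or 3 (up to 0.0757), TRIB3 in all fits but that without ISL1-/- replicate 3 (up to 0.12), and DERL3 in all 6 (up to 0.13). Without the 2 libraries that stood apart 6, 16 and 8 members were called in the 3 comparisons, against 8.74%, 21.7% and 16.3% of all genes. In that fit PDIA4, PDIA6, HSPA5 and HSP90B1 were higher in ISL1-/- than in PDX1-/- (0.66, 0.48, 0.28 and 0.34), while WFS1, CHAC1 and TRIB3 were lower (-0.48, -0.98 and -1.08).

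The ISL1 vector was compared with BFP within each genotype. In WT no member was called, against 0.027% of all genes, no member had an unadjusted p under 0.05, against 3.82% of all genes, and DESeq2 called none. Values leaned down, with a median log2 fold change of -0.18 for the members and 0.00 for all genes. HSPA5 was at 2200 and 2330 CPM with ISL1 against 2660 and 2840 with BFP, and the summed level of the 38 members was 14700 and 14600 CPM against 16200 and 17300.

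In ISL1-/- 2 members rose with the ISL1 vector, against 0.382% of all genes called and 0.251% called higher. ERN1 was at 30.7, 32.4 and 30.9 CPM with ISL1 and at 12.9, 11.4 and 12.3 CPM with BFP, a rise of 2.57-fold (log2 fold change 1.36 ± 0.24, adjusted p = 0.0149). The level with ISL1 lies within the range of WT, where ERN1 was at 25.8 to 36.4 CPM. ERO1B was at 272, 299 and 350 CPM with ISL1 and at 110, 157 and 124 with BFP, a rise of 2.35-fold (1.24 ± 0.26, 0.0441). It remained below every WT library, the lowest of which was at 1060 CPM. The sum of alpha cell markers was higher beside them, at 3270 to 6420 CPM against 995 to 1220, mostly through GCG, the glucagon gene, at a mean of 3420 against 83.5 CPM. Other alpha markers were mixed, with TTR at 519 against 418 and GC at 20.7 against 48.6 CPM, and their part in the rise was not tested. Without a library in turn, ERN1 missed the threshold in 5 of 6 fits, all but that without ISL1-/- replicate 3 with ISL1 (adjusted p up to 0.107), and ERO1B in all 6 (up to 0.239). Without the 2 libraries that stood apart, ERN1 (1.33, 0.000139) and ERO1B (1.20, 0.00131) were higher and TRIB3, CHAC1 and WFS1 lower (-0.80, -0.91 and -0.48), against 4.93% of all genes called.

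In PAX6-/- no member was called, against 0.355% of all genes, while 5 members had an unadjusted p under 0.05, against 10.3% of all genes. With replicate as a block TRIB3 was called lower (-0.92 ± 0.21, adjusted p = 0.0367), against 2.23% of all genes, and DESeq2 also called 1 member. TRIB3 was at 24.8, 15.9 and 38 CPM with ISL1, where the highest is the library that stood apart, and at 54.6, 35 and 55.4 CPM with BFP. ERO1B overlapped between the vectors here, with 143, 101 and 87.5 CPM against 169, 99.8 and 141. Without the 2 libraries WFS1, CHAC1, P4HB and TRIB3 were lower (-0.59, -1.26, -0.38 and -1.26), against 4.97% of all genes called.

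In PDX1-/- 14 members were called, 10 higher and 4 lower with the ISL1 vector, against 12.5% of all genes called, 8.19% higher and 4.33% lower. Replicate 4, which stood apart, is 1 of the 2 libraries with ISL1 here. PDIA6 was at 546 and 891 CPM with ISL1 and at 323, 332 and 335 with BFP, a log2 fold change of 1.12 ± 0.20 (adjusted p = 0.00236). HERPUD1 was at 474 and 602 CPM against 228, 259 and 246 (1.14 ± 0.21, 0.00351). In both genes the library that did not stand apart, replicate 2, was also above all 3 with BFP.

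PDIA4 was at 1020 CPM in replicate 2 and 605 in replicate 4 against 419 to 450 with BFP (0.89 ± 0.23, adjusted p = 0.02), HSP90B1 at 1510 and 1500 against 938 to 1050 (0.59 ± 0.16, 0.0278), and PDIA3 at 1220 and 1860 against 709 to 851 (1.01 ± 0.21, 0.00592). ERN1 was at 22.6 and 36.9 CPM against 13.2 to 16.2 (0.99 ± 0.26, 0.0216). The 4 lower members were TRIB3 (-1.17 ± 0.31, 0.0235), ERO1A (-0.80 ± 0.25, 0.045), ATF6 (-0.75 ± 0.22, 0.0308) and WFS1 (-0.66 ± 0.19, 0.0327). WFS1 was at 251 and 235 CPM with ISL1 against 363 to 402 with BFP, and replicate 2 lies within the range of WT with BFP, 247 to 276 CPM.

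Leaving out replicate 4 ended 11 of the 14 calls, all but PDIA4, PDIA6 and HERPUD1. The other 4 called members differed most between the ISL1 libraries. SDF2L1 was at 76.7 CPM in replicate 2 and 501 in replicate 4, MANF at 56.0 and 313, DDIT3 at 22.5 and 211, and DERL3 at 1.87 and 7.2, against 67.6 to 74.1, 48.3 to 62.4, 24.1 to 33.9 and 0.715 to 0.914 CPM with BFP. Without replicate 4, SDF2L1, MANF and DERL3 were at 0.13, 0.07 and 1.17 and not called, and DDIT3 changed sign to -0.39. In that fit the called members were PDIA6, PDIA4 and HERPUD1, at 0.73, 1.22 and 0.96, against 2.41% of all genes called. Replicate 4 also held the highest alpha cell, beta cell and hepatocyte marker sums of any library, at 122000, 25900 and 26300 CPM, against 14800, 593 and 6860 CPM in replicate 2, and their part in these calls was not tested. Without replicate 2 of the ISL1 group, which leaves the library that stood apart, 27 members were called, against 41.8% of all genes. Leaving out BFP replicate 1, 2 or 3 ended 7, 9 and 10 of the 14 calls, and PDIA6 and HERPUD1 were called in all 5 fits that left out a library. Neither was called with a replicate block (adjusted p = 0.0962 and 0.057), with voom quality weights (0.289 and 0.563) or with the compared groups alone (0.28 and 0.256), and with the compared groups alone no gene at all was called.

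**Figure D5:**
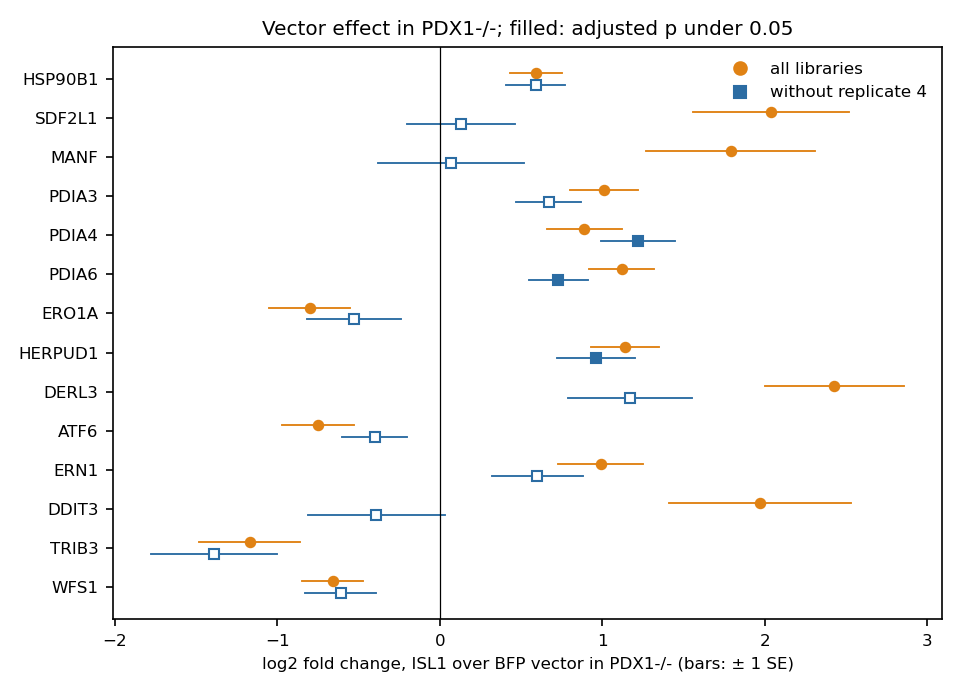
Points are log2 fold changes of the ISL1 over the BFP vector in PDX1-/-, with bars of 1 SE, for the 14 members called with all libraries, fitted with all libraries (circles) and without replicate 4 (squares), and filled points passed an adjusted p of 0.05. PDIA4, PDIA6 and HERPUD1 are filled in both, while SDF2L1, MANF and DDIT3 fall to near 0 or below without replicate 4.

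Without both libraries that stood apart, 7 members were higher with the ISL1 vector in PDX1-/-, against 5.46% of all genes, and 3 lower, against 3.46%. The higher ones were PDIA4 (1.25, adjusted p = 5.59e-06), HERPUD1 (0.98, 0.00465), PDIA6 (0.75, 0.00113), PDIA3 (0.69, 0.00367), HSP90B1 (0.62, 0.00209), CALR (0.49, 0.0187) and HSPA5 (0.43, 0.0174). The lower ones were CHAC1 (-1.40, 0.00143), TRIB3 (-1.37, 0.00712) and WFS1 (-0.59, 0.0299). Here the ISL1 group is replicate 2 alone, which is assumed to vary like the other groups.

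Whether the vector acted differently in a knockout than in WT was tested as an interaction. For ISL1-/- and PAX6-/- no member was called, against 0.00386% and 0% of all genes, with 2 and 1 members at an unadjusted p under 0.05, against 2.97% and 3.54% of all genes, and DESeq2 called none in either. For PDX1-/- 2 members were called, against 1.19% of all genes called and 0.993% higher: PDIA6 (1.30 ± 0.30, adjusted p = 0.0414) and HERPUD1 (1.55 ± 0.32, 0.0263). Both calls were lost in 8 of the 9 fits that left out a library, all but that without replicate 2 of PDX1-/- with ISL1 (adjusted p up to 0.29 and 0.242). Without both libraries that stood apart, 6 members were called, against 2.36% of all genes: HSPA5, HSP90B1, PDIA3, PDIA4, PDIA6 and HERPUD1, at 0.71, 0.85, 0.85, 1.38, 0.94 and 1.40. ERN1 was then called for ISL1-/- (1.34, adjusted p = 0.0368), against 0.308% of all genes.

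The knockouts were also compared with WT under the ISL1 vector, in libraries that the BFP comparisons do not use. In ISL1-/- 2 members were lower, against 3.72% of all genes called and 2.69% lower: ERO1B (-1.96 ± 0.28, adjusted p = 0.000925) and DNAJC3 (-0.83 ± 0.22, 0.0465). ERO1B was at 1330 and 1060 CPM in WT with ISL1 and DNAJC3 at 124 and 100. In PAX6-/- 4 were lower, against 3.56% of all genes called, 2.3% lower and 1.26% higher: ERO1B (-3.44 ± 0.29, 5.16e-06), DNAJC3 (-0.93 ± 0.22, 0.0269), P4HB (-0.70 ± 0.18, 0.0387) and HSPA5 (-0.59 ± 0.16, 0.0424). In PDX1-/- ERO1B alone was lower (-2.19 ± 0.33, 0.00859), against 0.634% of all genes called, 0.286% lower and 0.348% higher. ERO1B was called in each fit that left out a library, except in PDX1-/- without WT replicate 1 (0.111). The PDX1-/- call was also lost with voom quality weights (adjusted p = 1) and with the compared groups alone (0.925).

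DNAJC3 in ISL1-/- and HSPA5 in PAX6-/- were lost in all 5 fits (adjusted p up to 0.371 and 0.312), DNAJC3 in PAX6-/- without PAX6-/- replicate 3 or either WT library (up to 0.281), and P4HB in 4 of 5, all but that without PAX6-/- replicate 2 (up to 0.357). Without both libraries that stood apart 18, 20 and 4 members were lower and none higher, against 19.5%, 12.2% and 6.66% of all genes called. ERO1B was then at -1.98, -3.31 and -2.62. With replicate as a block 9 members were lower in PAX6-/-, against 7.02% of all genes, and the 5 added are HSP90B1, ERO1A, XBP1, TRIB3 and WFS1. Without replicate 2 of PDX1-/- with ISL1, which leaves replicate 4, 18 members were called in PDX1-/-, 9 higher and 9 lower, against 32.2% of all genes, in a group of 1 library assumed to vary like the others.

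With all libraries and no block, 21 of the 38 members were called in at least 1 of the 13 comparisons of 2 groups, and 17 in none. The 17 are HYOU1, CALR, CANX, DNAJB11, CRELD2, SEL1L, SYVN1, EDEM1, DERL2, EIF2AK3, ATF4, ATF3, PPP1R15A, CHAC1, ASNS, SESN2 and SEC61B. In the knockouts with BFP their log2 fold changes ran from -2.19 for ATF3 in ISL1-/- to 0.67 for CHAC1 in PDX1-/-. Their mean levels per exon length ran from 0.187 CPM per kilobase for ASNS to 114 for SEC61B. DNAJB11, a co-chaperone of HSPA5, was at 195 and 212 CPM in WT and at 99.4 to 121 CPM in the knockouts, without overlap, but at 226 and 350 CPM in the 2 libraries that stood apart, and its SE was 0.37. PPP1R15A (GADD34), which restores translation after stress, was at 223 and 133 CPM in WT and overlapped all 3 knockouts. SESN2, a stress-induced regulator of growth signalling, was at 121 and 116 CPM in WT and 96.6 to 149 CPM in the knockouts.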

How the data were processed

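The authors deposited raw counts per gene with exon coordinates and lengths, in the layout of featureCounts per the file headers. The submitters' processing notes name STAR 2.7.11b, featureCounts 2.1.1 and GRCh38, with no strand setting given in the sources used here. All 62699 gene IDs used matched a symbol, and the entry of ANK2, broken over 3 lines, was left out. Counts were tested with edgeR 4.0.16 in R 4.3.3, using the quasi-likelihood F test with TMM scaling, filterByExpr (minimum 10 counts, total 15), 25884 genes, a coefficient per group over all 21 libraries, and Benjamini-Hochberg adjustment within each of 16 comparisons. A call is an adjusted p under 0.05. Fold changes use a prior count of 0.125, and SE is the fold change over the root of F. The common biological coefficient of variation was 0.334. The script was tested on simulated data. Members were chosen, and gene lists written, with earlier results of these data known. All members called between 2 groups are named with values, and of each other list up to 3 called genes, those that changed most among genes reaching 10 CPM on average in either group. Replicates are numbered by sample description, and the numbers pair the PAX6-/- libraries, where deviations from the group means correlated in every pair (r = 0.15, 0.39 and 0.33). The ISL1-/- pairs also correlated (r = 0.18, 0.10 and 0.29). Alternatives were DESeq2 1.42.0, its size factors, no filter, a replicate block, limma 3.58.1 (voom with quality weights), fits of the compared groups alone, leaving out each library, and leaving out both libraries that stood apart.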

Additional observations from a re-analysis of the deposited data

Results flagged for a closer look

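The effect of the ISL1 vector in PDX1-/- differed from that in WT, by the interaction test, for 2 members. For PDIA6 the difference was 1.30 ± 0.30 on the log2 scale (SE, edgeR adjusted p = 0.0414), with 546 and 891 CPM with ISL1 against 323 to 335 with BFP in PDX1-/-, and 682 and 739 against 755 and 856 in WT. For HERPUD1 it was 1.55 ± 0.32 (0.0263), with 474 and 602 CPM against 228 to 259 in PDX1-/-, and 375 and 430 against 520 and 551 in WT. Both PDX1-/- libraries with ISL1 lay above all 3 with BFP, and both WT libraries with ISL1 lay below both with BFP. Without replicate 4 of PDX1-/- with ISL1 neither was called, and without both libraries that stood apart both were, at 0.94 and 1.40.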

How the results depend on the processing

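Each alternative below gives the number of members called, and numbers near that of the main fit are left out. Without both libraries that stood apart it was 23, 21 and 27 for ISL1-/-, PAX6-/- and PDX1-/- against WT with BFP, 18, 20 and 4 with ISL1, 6, 16 and 8 between knockouts, 5 and 4 for the vector in ISL1-/- and PAX6-/-, and 1 and 6 for the interactions of ISL1-/- and PDX1-/-. With voom quality weights the numbers were 24, 21 and 26, 19, 18 and 0, 5, 17 and 8, then 7, 7 and 0 for the vector in the 3 knockouts, and 2 and 0 for the same interactions. With the compared groups alone they were 24, 21 and 27, 17, 1 and 0, 2, 16 and 6, then 5 and 0 for the vector in ISL1-/- and PDX1-/-, and 1 and 0. DESeq2 called 12 in PAX6-/- with BFP, 4 and 8 in ISL1-/- and PAX6-/- with ISL1, 5 between ISL1-/- and PDX1-/-, 1 for the vector in PAX6-/- and 7 for the PDX1-/- interaction, and its size factors left 1 for the vector in ISL1-/-. With no filter 5 and 3 were called in ISL1-/- and PAX6-/- with BFP, 2 in PAX6-/- with ISL1, 1 between PAX6-/- and PDX1-/- and 9 for the vector in PDX1-/-. Alternatives also changed the share of all genes called, so these numbers and those below are no result on the members. Against WT with BFP, the main fit called 5.59%, 5.51% and 9.68% of all genes. Leaving out both libraries raised this to 23.5%, 23.5% and 27.6%, and the replicate block to 13% in PAX6-/-. For voom, the compared groups alone, DESeq2 and no filter the share is not given here.

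The replicate block called 13 in PAX6-/- with BFP, 5 and 9 in ISL1-/- and PAX6-/- with ISL1, 7 between ISL1-/- and PDX1-/-, 1 each for the vector in PAX6-/- and PDX1-/-, and 1 for the PDX1-/- interaction. With BFP the block also added the members named above in ISL1-/- and PDX1-/-. In PDX1-/- with ISL1 the number 4 occurs once, so the block takes up that library. In ISL1-/- the same-numbered pairs correlated at 0.18, 0.10 and 0.29, each sample best with its own number, as in PAX6-/-. In PDX1-/- and WT the samples share only a number, and the only pairs gave -0.21 and -0.04. Leaving out a library gave 1 to 10, 1 to 14 and 8 to 18 calls for the knockouts with BFP, 1 to 5, 1 to 9 and 0 to 18 with ISL1, 0 to 7 between ISL1-/- and PDX1-/-, 1 to 3 between PAX6-/- and PDX1-/-, 0 to 2 and 3 to 27 for the vector in ISL1-/- and PDX1-/-, and 0 to 20 for the PDX1-/- interaction. Of the alternatives for single members, 566 kept direction and call, 237 lost the call and 3 turned: DDIT3 for the vector in PDX1-/- went to -0.31 with the block, -0.37 without both libraries and -0.39 without replicate 4, while without replicate 2 it was 2.82. The cause was not tested. With 2 WT libraries per vector, small differences could not be detected. Scaling by DESeq2 size factors moved the median of all genes by at most 0.03, and in comparisons that use the libraries that stood apart that median was 0.10 to 0.13.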
